A study of Mus musculus with 2 samples.

Results

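The platelet chemokines and receptors described here are 10 genes whose products mark megakaryocytes and the platelets that they shed: Pf4, Ppbp, Itga2b, Itgb3, Gp1ba, Gp1bb, Gp9, Gp5, Gp6 and Clec1b. They were found by symbol through a GENCODE mouse annotation and matched by gene identifier, without its version, to the gene tables of both libraries. All 10 were found among 43346 mouse genes. The RNA came from livers of embryos of the C57BL/6J mouse strain, taken on embryonic day 14 and pooled over male and female littermates. It was polyadenylated RNA longer than 200 nucleotides, sequenced as stranded read pairs. The series holds 1 group of 2 libraries, labelled biological replicates 1 and 2, with no second genotype, treatment or age, so every comparison below is between genes or between the 2 libraries. The labels give 1 donor entry for both libraries and do not state that separate litters were used, so the spread between them may be technical.

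Platelets are made by megakaryocytes, large polyploid cells of the blood-forming lineage, and at this stage of the mouse embryo blood cells form chiefly in the liver. Their alpha granules store the chemokines encoded by Pf4 (platelet factor 4) and Ppbp (pro-platelet basic protein). Their surface carries the fibrinogen receptor, a pair of integrin chains from Itga2b and Itgb3, and the von Willebrand factor receptor GPIb-IX-V, from Gp1ba, Gp1bb, Gp9 and Gp5. Gp6 encodes the collagen receptor GPVI, which signals through the Fc receptor gamma chain of Fcer1g, and Clec1b encodes CLEC-2, the receptor for podoplanin. In tissue RNA, fewer cells of a type and less RNA per cell cannot be told apart.

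The libraries held 100477392 and 154601605 expected counts, and the 10 genes took 44496 and 72215 of them. These were 0.0458% (exact 95% interval 0.0454 to 0.0462%) and 0.0484% (0.0480 to 0.0487%) of the counts on mouse genes, intervals that cover counting error only. The least-counted value was that of Gp6 in replicate 1, at 223 counts. The 6 hepatocyte markers examined, Alb and Afp among them, were each above 10 TPM in both libraries. Levels are given as TPM, a unit that divides counts by transcript length and scales each library to the same total, so that genes can be compared with each other. Errors are SD over the 2 libraries (n = 2).

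All 10 genes reached at least 1 TPM in both libraries, a level reached by 26.6% of all mouse genes and 50.6% of protein-coding ones, and 7 of the 10 reached 10 TPM. Together the 10 summed to 448 TPM in replicate 1 and to 494 TPM in replicate 2. The 2 chemokine genes supplied 76.8% and 77.5% of these sums, and the 8 receptor genes the rest. From the highest gene to the lowest, the level fell 123-fold in replicate 1 and 98.1-fold in replicate 2. The order by mean was Pf4, Ppbp, Itga2b, Gp9, Clec1b, Gp1bb, Itgb3, Gp5, Gp1ba and Gp6. In 8 of the 9 neighbouring pairs of that order the values of the 2 libraries did not overlap, and the exception was Gp1bb with Itgb3.

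**Figure D1:**
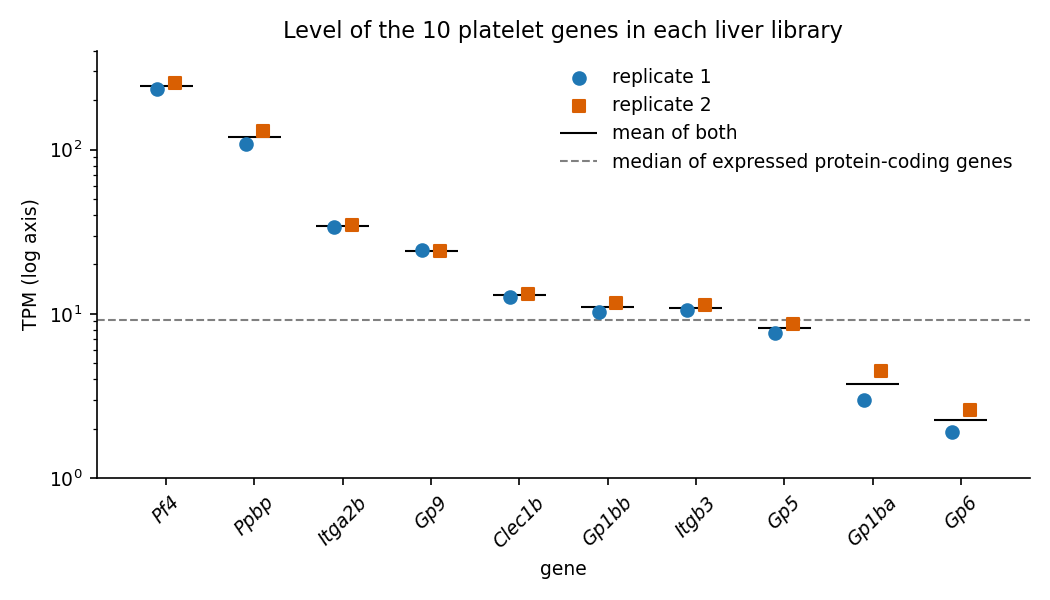
Level of each gene in TPM (log axis) in replicate 1 (circles) and replicate 2 (squares), with the mean as a bar and, dashed, the median of those protein-coding genes that reached 1 TPM in each library (9.14 TPM). Pf4 and Ppbp stand above 100 TPM in both libraries, while Gp5, Gp1ba and Gp6 lie below the dashed line.

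Pf4 (ENSMUSG00000029373.6; GRCm38 chromosome 5, 90772435 to 90773383, plus strand), a heparin-binding chemokine of the alpha granule, measured 236 TPM in replicate 1 and 254 in replicate 2 (245 ± 13.1), from 10780 and 16687 counts. It ranked 267th among the 43346 genes. Ppbp (ENSMUSG00000029372.6; chromosome 5, 90768518 to 90770063, plus strand), the precursor of a neutrophil-attracting chemokine, was at 109 and 129 TPM (119 ± 14.5), from 11622 and 19930 counts. Replicate 2 was the higher library for both in TPM, and the range of Pf4 lay above that of Ppbp. Per length, Pf4 was 2.07 ± 0.142 times Ppbp in TPM and 1.40 ± 0.0957 times Ppbp in mm9 RPKM. In counts the order was the other way round, at 0.882 ± 0.0638, because the effective length of Pf4 in replicate 1 was 369 nucleotides and that of Ppbp 863.

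The 2 chemokine genes lie 2371 bp apart on the same strand, within a row of CXC chemokine genes on chromosome 5. Cxcl5, the neighbour on the Ppbp side, had 0.30 and 0.45 TPM, and Cxcl3, the neighbour on the Pf4 side, had 0.04 and 0.01 TPM. Cxcl15 had no count in replicate 1, where 3 counts would be 0.0127 TPM, and 0.01 TPM in replicate 2. Cxcl2 had 0.04 and 0.02 TPM. Cxcl1, a neutrophil chemokine further along the row, was the only one of these 5 at 1 TPM or more in both libraries, at 4.38 and 2.26 TPM. High levels in this stretch were those of Ppbp and Pf4, and every other gene of the row lay below them in both libraries.

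Itga2b (ENSMUSG00000034664.9; chromosome 11, 102453297 to 102470122, minus strand), the integrin alpha-IIb chain and an early marker of the lineage, was at 33.7 and 35.0 TPM (34.3 ± 0.948), from 7315 and 11851 counts. Itgb3 (ENSMUSG00000020689.4; chromosome 11, 104608000 to 104670476, plus strand), the beta-3 chain that pairs with it, was at 10.52 and 11.3 TPM (10.9 ± 0.537), from 7257 and 11263 counts. The alpha chain was thus 3.15 ± 0.0684 times the beta chain per length, and their ranges did not overlap. Over protein-coding transcripts alone, a comparison added after the transcript values were seen, the ratio was 1.48 ± 0.0710. In counts it was 1.03 ± 0.0313, and in mm9 RPKM 2.06 ± 0.112.

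Of the GPIb-IX-V genes, Gp9 (ENSMUSG00000030054.3; chromosome 6, 87778072 to 87779768, plus strand), the small GPIX subunit, was highest at 24.5 and 24.1 TPM (24.3 ± 0.247), from 1802 and 2559 counts. Gp1bb (ENSMUSG00000050761.3; chromosome 16, 18620317 to 18622403, minus strand), the subunit joined to GPIb-alpha by disulfide bonds, was at 10.3 and 11.6 TPM (10.95 ± 0.905). Gp5 (ENSMUSG00000047953.6; chromosome 16, 30307685 to 30310779, minus strand), a thrombin substrate held loosely in the complex, was at 7.63 and 8.69 TPM (8.16 ± 0.7495), from 1872 and 3083 counts. Gp1ba (ENSMUSG00000050675.7; chromosome 11, 70639122 to 70642036, plus strand), the subunit that binds von Willebrand factor, was lowest at 3.0 and 4.48 TPM (3.74 ± 1.05), from 880 and 1905 counts. The 4 ranges did not overlap.

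The ligand-binding subunit was the least abundant message of its receptor in both libraries. Per length, Gp9 was 6.77 ± 1.96 times Gp1ba, Gp1bb was 3.01 ± 0.601 times and Gp5 was 2.24 ± 0.427 times. In the mm9 gene table, in RPKM, they were 3.23, 2.29 and 1.23, and in counts without length 1.70, 1.499 and 1.87, so that Gp1ba was the lowest in each but the size of the gap depended on the measure. The TPM ratios to Gp1ba were the most variable between the libraries of those computed, since Gp1ba differed most between the libraries. Gp1bb over Gp5 varied less between the libraries, at 1.34 ± 0.0124, but it was 1.85 in mm9 RPKM and turned direction in counts without length, at 0.801. Gp1bb overlaps Sept5 (a septin gene) on the same strand, so some of its reads could belong to either gene. The counts of Gp1bb, 1487.51 and 2490.46, had posterior SDs of 2.96 and 3.11 counts in the deposited tables, and Sept5 had 1.78 and 1.69 TPM.

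Clec1b (ENSMUSG00000030159.11; chromosome 6, 129397297 to 129409335, plus strand) was at 12.6 and 13.3 TPM (12.95 ± 0.495), from 1257 and 2013.2 counts. Gp6 (ENSMUSG00000078810.3; chromosome 7, 4363965 to 4397744, minus strand) was the lowest of the 10, at 1.92 and 2.59 TPM (2.255 ± 0.474), from 223 and 433 counts. Both receptors signal through the kinase Syk, and the collagen receptor was at 0.174 ± 0.0300 of the podoplanin receptor per length. Fcer1g, the signalling partner of GPVI, was at 39.7 and 52.55 TPM. Gp6 was 0.0488 ± 0.000653 of it. Fcer1g also serves Fc receptors of macrophages and mast cells, and the 10 macrophage markers examined summed to 196 and 245 TPM, of which 9 reached 1 TPM in both libraries. Their part in the level of Fcer1g was not tested.

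Sequence upstream of the start sites was examined because GATA1, the blood factor that drives megakaryocyte genes together with its partners, binds GATA letters in DNA. Windows from 250 bases before to 50 bases after the start (RefSeq, GRCm38.p6) were at hand for 9 of the 10 genes, all but Itgb3. The GATA words searched on both strands were AGATAA, then TGATAA, then AGATAG and lastly TGATAG, and each was counted also where it overlapped another. At least 1 word was in 6 of the 9 windows, against 29.8% of all 32851 windows in the table, and 2 or more were in 3 of the 9, against 7.77% of all. The ETS core letters GGAA were in all 9 windows and in 96.0% of all windows, so that their presence could not set the genes apart. The 9 windows held 3 to 7 matches each, beside a median of 3 over all windows. A match describes letters and not a bound site.

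The 250 bases before the start are shown for the 3 genes with 2 or more GATA words in the window, and for Gp6 and Pf4, the lowest and the highest of the 10. Each is written 5′ to 3′ on the strand of its gene, with GATA words in capitals, so that a word on the other strand reads as its reverse complement. Gp1ba lies at chr11:70638872-70639121, Gp5 at chr16:30310782-30311031, Clec1b at chr6:129397047-129397296, Gp6 at chr7:4397745-4397994 and Pf4 at chr5:90772185-90772434.
Gp1ba: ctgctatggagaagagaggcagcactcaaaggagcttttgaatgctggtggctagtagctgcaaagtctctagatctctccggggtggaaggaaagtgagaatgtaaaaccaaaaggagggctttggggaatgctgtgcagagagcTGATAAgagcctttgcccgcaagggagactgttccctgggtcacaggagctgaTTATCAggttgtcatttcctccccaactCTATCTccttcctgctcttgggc
Gp5: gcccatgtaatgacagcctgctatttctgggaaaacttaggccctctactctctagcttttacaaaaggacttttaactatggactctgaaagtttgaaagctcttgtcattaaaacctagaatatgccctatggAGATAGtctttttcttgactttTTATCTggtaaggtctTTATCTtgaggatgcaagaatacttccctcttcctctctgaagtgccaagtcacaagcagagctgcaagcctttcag
Clec1b: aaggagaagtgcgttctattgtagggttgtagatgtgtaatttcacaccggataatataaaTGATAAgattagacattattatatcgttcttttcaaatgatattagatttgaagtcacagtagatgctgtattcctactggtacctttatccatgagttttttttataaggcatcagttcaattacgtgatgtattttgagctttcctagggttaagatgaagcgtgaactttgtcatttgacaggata
Gp6: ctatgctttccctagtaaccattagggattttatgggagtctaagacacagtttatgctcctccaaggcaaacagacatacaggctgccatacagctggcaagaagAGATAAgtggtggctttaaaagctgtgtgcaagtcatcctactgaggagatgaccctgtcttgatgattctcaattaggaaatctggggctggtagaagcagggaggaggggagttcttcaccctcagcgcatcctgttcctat
Pf4: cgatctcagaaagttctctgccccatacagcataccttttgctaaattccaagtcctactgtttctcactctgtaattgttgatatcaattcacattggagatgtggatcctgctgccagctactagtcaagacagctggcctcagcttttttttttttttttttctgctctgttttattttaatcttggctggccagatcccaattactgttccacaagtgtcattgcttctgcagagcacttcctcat
The words of Gp1ba began 104, 51 and 23 bases before the start, and those of Gp5 began 115, 93 and 77 bases before it. Clec1b had 1 word 189 bases before the start and 1 word 37 bases after it, outside the stretch shown. Gp6 had 1 word 144 bases before the start. Pf4 had none in the stretch shown and 1 word 36 bases after the start. Gp1bb had 1 word, and Ppbp, Itga2b and Gp9 had none in their windows. Unannotated junctions lay upstream of the Gp9 start, as described below, and sequence beyond the windows was not searched. The genes with most words, Gp1ba and Gp5, were among the 3 lowest in TPM, but Gp6, the lowest, and Pf4, the highest, had 1 word each.

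The 2 libraries were then compared gene by gene on counts scaled by TMM, a scaling that centres the bulk of genes, with a two-sided exact binomial test adjusted by Benjamini-Hochberg over 18572 genes. This compares 2 libraries, not conditions, and knows counting error only. Of the 10 genes, 5 passed an adjusted p of 0.05, near the background share of 40.3% of all genes tested. Ppbp, Gp1ba and Gp6 were higher in replicate 2, as were 19.9% of all genes, and Pf4 and Gp9 were higher in replicate 1, as were 20.4%. The other 5 did not pass. The median absolute log2 ratio of the 10 was 0.06, beside 0.14 for all genes tested. With the spread between the libraries estimated over all genes (a biological coefficient of variation of 19.1%), edgeR's exact test called 0 of the 10 and 471 of 18572 genes. That spread came from the same 2 libraries that were compared, so this count cannot decide whether the 10 genes differ.

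Gp1ba differed most, with 1.36 times the scaled counts in replicate 2 (log2 ratio 0.44, 95% counting interval 0.32 to 0.56, exact binomial adjusted p = 4.85e-13). Its log2 ratio lay above the 95th percentile of genes with at least 100 counts, 0.35. Ppbp was higher in replicate 2 by a log2 ratio of 0.10 (0.07 to 0.14, exact binomial adjusted p = 9.71e-09). Gp6 followed Gp1ba in direction, with a log2 ratio of 0.28 and a wide interval of 0.05 to 0.52 (exact binomial adjusted p = 0.0451). Gp9 had a log2 ratio of -0.17 (-0.26 to -0.08, exact binomial adjusted p = 0.000588) and Pf4 one of -0.05 (-0.08 to -0.01, exact binomial adjusted p = 0.0296). For Pf4 the direction turned with the scaling, since with library totals the log2 ratio was 0.01. With no filter on counts the calls of Pf4 and Gp6 were lost (exact binomial adjusted p = 0.123 and 0.0942). Unscaled TPM put 9 of the 10 higher in replicate 2, but the median gene was then also shifted by a log2 ratio of 0.15.

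**Figure D2:**
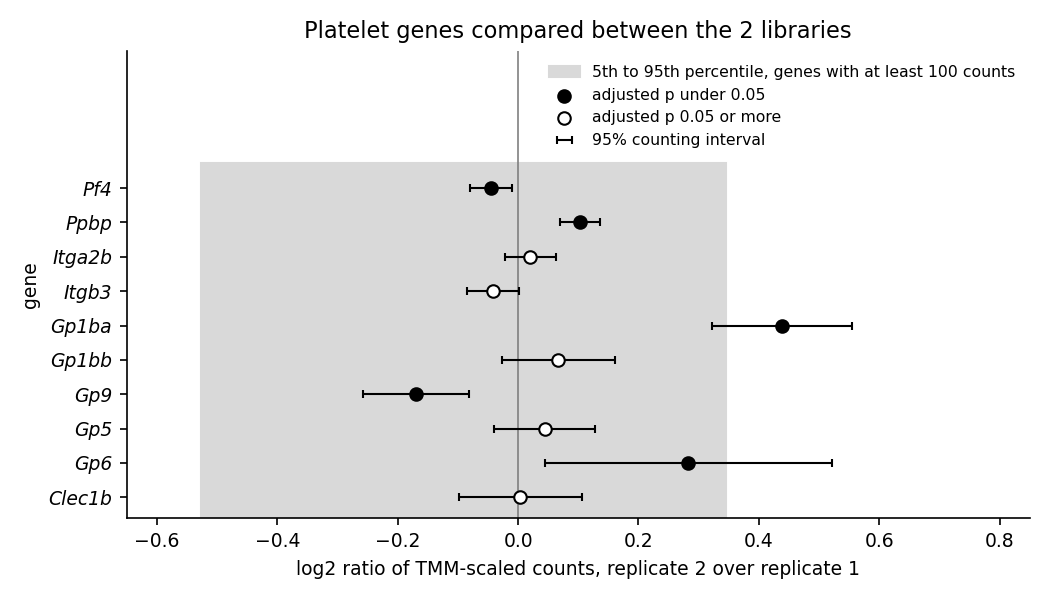
Log2 ratio of TMM-scaled counts, replicate 2 over replicate 1, for each gene with its 95% counting interval, filled where the adjusted p was under 0.05; the grey band spans the 5th to 95th percentile of genes with at least 100 counts (-0.53 to 0.35). Gp1ba lies beyond the band, and the other 9 points lie inside it.

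Itga2b (log2 ratio 0.02), Itgb3 (-0.04), Gp1bb (0.07), Gp5 (0.04) and Clec1b (0.00) did not pass the threshold. Both integrin chains were thus within 0.05 of 0 on the log2 scale. In the same test, which knows counting error only, 19.9% of all genes were higher in replicate 2 and 20.4% in replicate 1. Erythroid markers showed 5 of 7 higher in replicate 2 and 2 of 7 higher in replicate 1. Of the 10 macrophage markers 8 were higher in replicate 2 and 1 in replicate 1. All 8 endothelial markers reached 1 TPM in both libraries, with 2 higher in replicate 2 and 4 in replicate 1. Of 6 mast cell and basophil markers 3 reached 1 TPM in both libraries, and Fcer1a, the lowest, had 0.03 and 0.02 TPM. No marker of these lists was at 0 in both libraries, and their part in the levels of the 10 genes was not tested.

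The tables list 25 transcripts for the 10 genes, and Pf4, Ppbp, Gp9, Gp5 and Gp6 have 1 each. Itga2b has 10, of which 9 are annotated as not coding for protein. The coding transcript, Itga2b-201, held 14.99 of 33.7 TPM in replicate 1 and 17.2 of 35.0 TPM in replicate 2, or 46.8 ± 3.24% of the gene. The non-coding ones held 55.5% and 50.9% of TPM but 18.2% and 16.2% of counts, most of it on Itga2b-207 (7.96 and 6.95 TPM, 623 nucleotides) and Itga2b-210 (5.57 and 5.67 TPM, 968 nucleotides). Short transcripts weigh more per read in TPM, and the TPM of Itga2b as a gene was therefore about evenly made of both kinds.

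**Figure D3:**
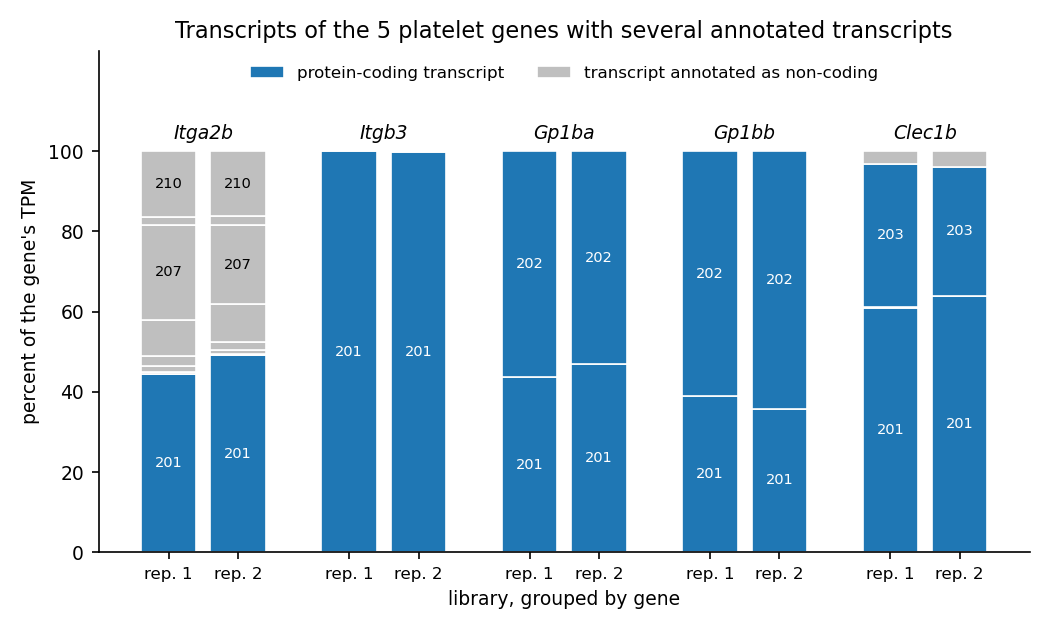
Share of each gene's TPM by transcript in replicates 1 and 2, for the 5 genes with several annotated transcripts; blue, protein-coding; grey, annotated as non-coding; numbers are transcript suffixes. Over 50% of Itga2b TPM is grey in both libraries, and Itgb3 is nearly all 1 transcript.

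Itgb3-201 held 99.8 ± 0.121% of Itgb3. Gp1ba was split about evenly, with 1.31 and 2.10 TPM on Gp1ba-201 and 1.69 and 2.38 TPM on Gp1ba-202 (54.7 ± 2.27%). Of its 2 annotated introns on mm9, only 1 passed the read minimum in the splice junctions described below. Whether spliced reads bear out the split was not tested. Gp1bb-202, of 1847 nucleotides, held 62.7 ± 2.16% of Gp1bb, and Gp1bb-201, of 645 nucleotides, the rest. Clec1b-201 held 62.4 ± 2.20%, Clec1b-203 held 33.9 ± 2.50%, and the retained-intron transcript Clec1b-204 held 3.54 ± 0.520%. In counts the share of Clec1b-204, which is 4347 nucleotides long, was 16.3% and 19.0%. In all 4 genes the order of the 2 main transcripts was the same in both libraries.

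Splicing was read from a separate list of splice junctions on the older mm9 genome, which gives reads for a first and a second replicate that the list does not tie to the library labels. Of 74 annotated introns of the 10 genes, 65 had at least 2 reads in each replicate, with 83476 reads in all. Another 26 junctions inside the genes were not annotated and held 744 reads, or 0.883% of the junction reads of the genes. Nearly all spliced reads inside the annotated bounds of these genes thus followed known introns. Junctions that cross those bounds or lie upstream, such as those before Gp9 described below, are not in this share.

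The chemokine genes have 2 introns each. Pf4 had 4902 and 7743 reads on its first intron and 3566 and 5095 on its second, in the first and second replicate of the list. Ppbp had 5094 and 8234 reads on its first and 2161 and 3615 on its second. In both genes the first intron had more reads than the second in both replicates. No listed junction ran from Ppbp into Pf4, although 1 contig, a stretch of continuous signal that the authors called over both replicates together, spanned both genes (mm9 chromosome 5, 91197500 to 91203539).

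Along Itga2b, counted on the coding transcript, read numbers were highest toward the 3′ end. Its introns 24 to 29 had 1304 to 1750 reads each, while introns 2 to 12, apart from intron 5, had 458 to 953. Intron 1 had 1388. Intron 5 had none on its annotated ends (mm9 chromosome 11, 102327837 to 102328367), but a junction of the same length shifted by 2 bases (102327835 to 102328365) had 138 and 286 reads. The shifted junction held 424 of the 596 reads on unannotated Itga2b junctions, and whether these are reads of intron 5 was not tested. Itgb3 had 144 reads on intron 1 and 338 to 773 on introns 2 to 14, with the most on intron 11.

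**Figure D4:**
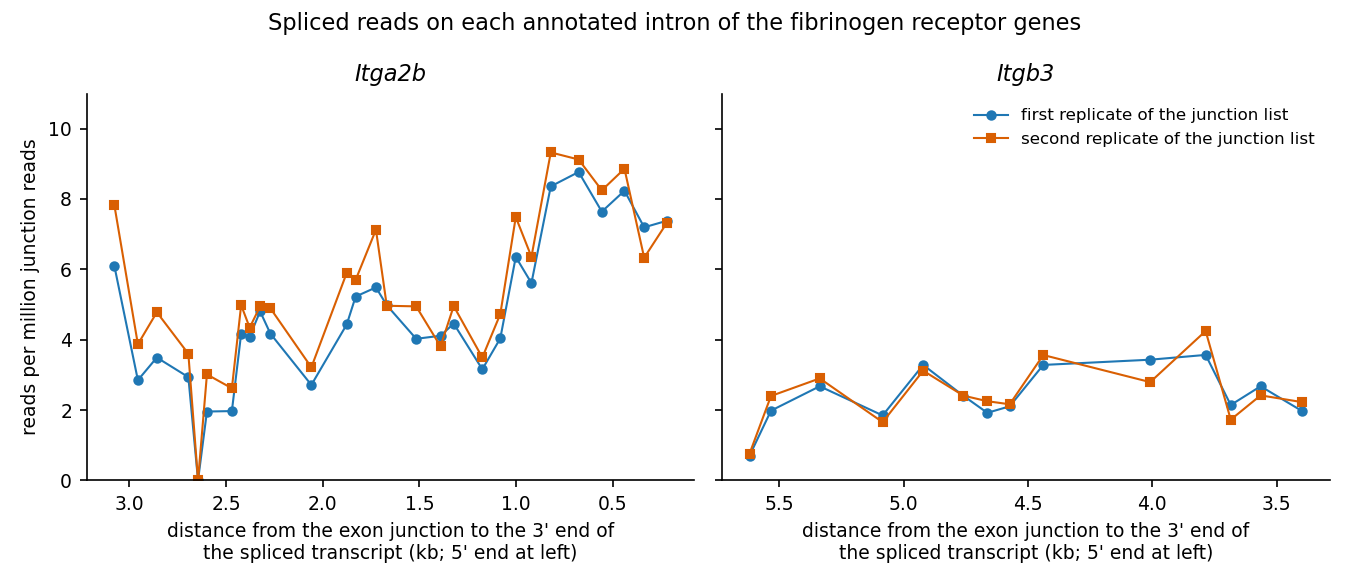
Reads on each annotated intron, scaled to the total of junction reads in each replicate, for Itga2b (29 introns) and Itgb3 (14 introns), against the distance of the exon junction from the 3′ end of the spliced coding transcript; circles, first replicate of the list; squares, second. Itga2b introns near the 3′ end lie highest, and the replicates follow each other in both genes. Intron 5 of Itga2b lies at 0 on its annotated ends, and the junction shifted by 2 bases is not plotted.

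The GPIb-IX-V genes have few introns. Gp9 had 771 and 1282 reads on its single intron, Gp1bb had 462 and 756, and Gp5 had 151 and 202. Gp1ba had 58 and 100 reads on 1 of its 2 annotated introns (mm9 chromosome 11, 70452709 to 70452905), the fewest of the 4 genes, as it was the lowest in TPM. Upstream of Gp9, on its strand and within 5000 bases before its annotated start, 6 unannotated junctions began and passed the same read minimum, in a stretch where the ENSEMBL table lists no gene on that strand. The largest (mm9 chromosome 6, 87727910 to 87728061) had 239 and 274 reads, and its downstream exon began 68 bases before the annotated start of Gp9. Another 157 reads joined 87726696 to 87727459. A contig over Gp9 began at 87725804, so signal was continuous from these exons into the gene. On GRCm38 the newer annotation places a long non-coding gene, Gm43904, 591 bp upstream on the same strand, whose level was not analysed here.

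Gp6, the lowest gene, had 71 to 157 reads on each of 7 introns, and 13 reads (10 and 3) on a junction from 4336743 to 4349252 on mm9 chromosome 7, which leaves out exons. Clec1b had 391 to 560 reads on 5 introns. A further 51 reads, 16 and 35, followed an annotated path of Clec1b that leaves out its second exon (mm9 chromosome 6, 129347697 to 129351489), beside 178 and 258 reads on the intron that follows that exon. All 10 genes were thus covered by spliced reads in both replicates.

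The other genes of the platelet pathway were read from 8 lists with 108 genes in all, chosen with earlier results of these data known. The lists also hold genes made by other liver cells, such as the fibrinogen chains. Of the 108, 92 (85.2%) reached 1 TPM in both libraries, beside 50.6% of protein-coding genes and 26.6% of all genes. At 10 TPM there were 37. Among 15 megakaryocyte transcription factors 14 reached 1 TPM, led by Nfe2 (131 and 176 TPM), Gata1 (91.9 and 110.5 TPM) and Tal1 (59.3 and 75.6 TPM). Mecom, a transcription factor of blood stem cells, was lowest at 0.64 and 0.74 TPM. In the exact test 9 of the 15 were higher in replicate 2 and 2 in replicate 1, beside 19.9% and 20.4% of all genes. These 3 leading factors also work in red cell precursors, whose markers Klf1 and Alas2 were at 167 and 201 TPM and at 847 and 941 TPM. The part of those cells in the levels of these factors was not tested.

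Of 11 genes of thrombopoietin signalling, the pathway that drives megakaryocyte growth, 10 reached 1 TPM. The highest were Stat3 (16.2 and 18.1 TPM), the kinase gene Jak2 (13.4 and 15.6 TPM) and Stat5b (10.4 and 12.1 TPM). Socs1, an inhibitor, was lowest at 0.64 and 0.96 TPM. In the exact test 5 of the 11 were higher in replicate 2 and 1 in replicate 1, beside 19.9% and 20.4% of all genes.

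All 13 genes of signalling below GPVI and CLEC-2 reached 1 TPM. Rasgrp2, an activator of the small GTPase Rap1, was highest at 69.3 and 75.6 TPM, followed by Fcer1g and the kinase Btk (15.5 and 16.6 TPM), and Vav3 was lowest at 1.11 and 1.29 TPM. In the exact test 6 were higher in replicate 2 and 2 in replicate 1, beside 19.9% and 20.4% of all genes. Of 21 other surface receptors of platelets 17 reached 1 TPM, from the tetraspanin Cd9 (46.9 and 61.6 TPM), Itgb1 (43.3 and 44.9 TPM) and Treml1 (11.6 and 12.1 TPM) down to the adrenergic receptor Adra2a (0.09 and 0.13 TPM), with 4 higher in replicate 2 and 3 in replicate 1.

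Granule cargo and biogenesis genes reached 1 TPM in 18 of 20 cases. In the exact test 5 were higher in replicate 2 and 6 in replicate 1, beside 19.9% and 20.4% of all genes. Gfi1b, a repressor needed in megakaryocyte and red cell precursors, was at 57.1 and 72.3 TPM, Sparc at 70.2 and 51.9 TPM and Clu at 39.1 and 40.01 TPM, while Ccl5 had 0.27 and 0.32 TPM. Sparc is also made by connective tissue cells. Vwf, which encodes the ligand of GPIb-alpha and is stored in the same granules, was at 8.55 and 8.94 TPM. The part of other liver cells in the level of Vwf was not tested. All 13 proplatelet cytoskeleton genes reached 1 TPM, led by Tuba4a (98.2 and 177 TPM), Flna (58.9 and 62.4 TPM) and Tpm4 (51.8 and 51.9 TPM), with Pstpip2 lowest at 2.88 and 3.8 TPM and 5 and 6 genes higher in replicate 2 and replicate 1.

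**Figure D5:**
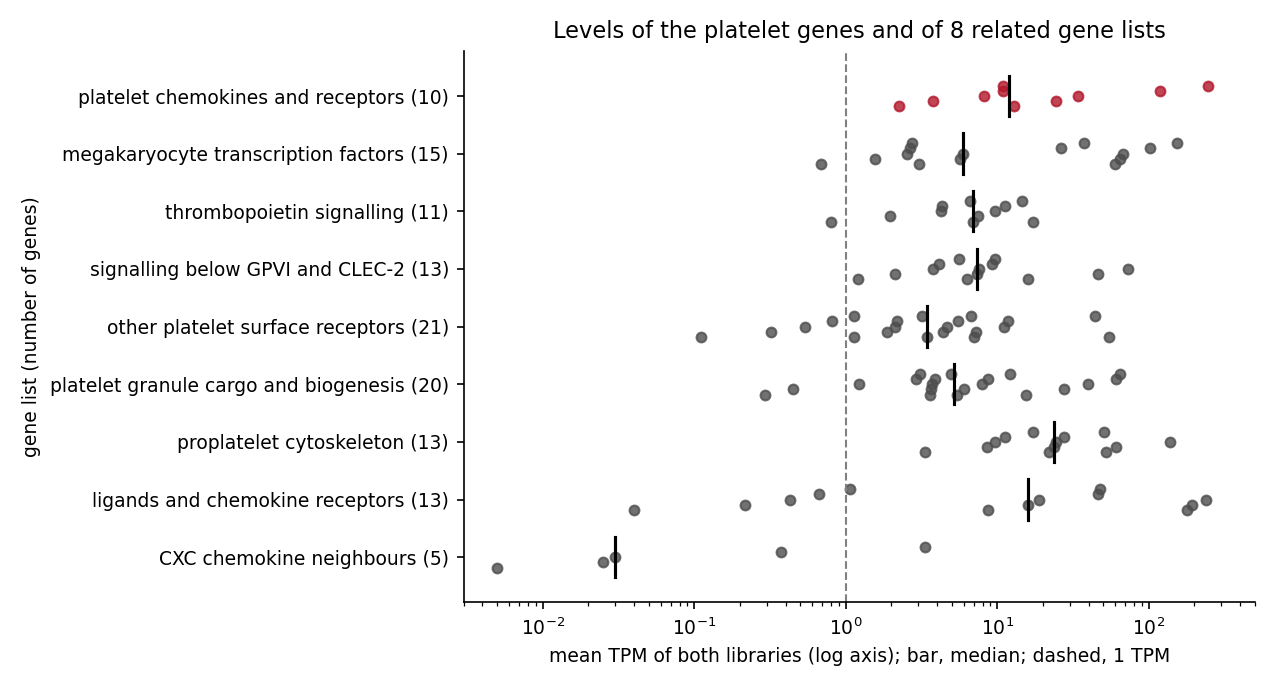
Mean TPM (log axis) of the 10 platelet genes and of the genes of 8 related lists, 1 point per gene, with the median of each list as a bar and 1 TPM dashed. Pf4 lies at 245 TPM, and 4 of the 5 CXC chemokine neighbours lie below 1 TPM.

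Ligands of the receptors were uneven. The fibrinogen chains Fga, Fgb and Fgg, made by hepatocytes, were at 184 and 198, at 188 and 170.2, and at 236 and 243 TPM. The collagen genes Col1a1 (22.1 and 9.52 TPM), Col1a2 (26.0 and 11.6 TPM) and Col3a1 (58.2 and 33.9 TPM) were all higher in replicate 1. They were the list's 3 genes called at least 2-fold apart, with log2 ratios of -1.36, -1.33 and -1.07. Among all genes with at least 100 counts, 2.46% were at least 2-fold apart. Pdpn, the ligand of CLEC-2, was at 0.55 and 0.31 TPM. Among the receptors that bind chemokines, Ackr1, a scavenging receptor also carried by red cells, was at 43.7 and 51.1 TPM and Ccr1 at 1.06 in both libraries. Cxcr2 had 0.50 and 0.84 TPM, Cxcr3 0.18 and 0.25 TPM, and Cxcr1, the lowest of the list, 0.01 and 0.07 TPM, from 1 and 12 counts. In all, 9 of these 13 genes reached 1 TPM. Of the 13, 2 were higher in replicate 2 and 7 in replicate 1, beside 19.9% and 20.4% of all genes. Of the 5 CXC neighbours only 2 had enough counts to be tested. Cxcl1 was the 1 called, higher in replicate 1 (log2 ratio -1.10), as were 20.4% of all genes.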

How the data were processed

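The members and lists were chosen with earlier results of these data known. The expected count values were deposited per gene and transcript for mm10 with GENCODE M4, per the file headers; no source used here names the aligner or quantifier. The TPM and FPKM values were made by the authors beside them, and the posterior SD used is a score deposited in the same tables. The mm9 gene values are RPKM, deposited by the authors for replicates not tied to a library. Junction counts and the contig signal, which pools both replicates, were deposited on mm9 and are read against ENSEMBL exons of the same build.

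Levels are means ± SD of deposited TPM. Names, types and GRCm38 positions come from GENCODE M21, which matched 42462 of 43346 genes; rows that name no mouse gene held 3.29% and 3.40% of counts and stayed out of tests. Libraries were compared on expected counts rounded to whole numbers by an exact binomial test, two-sided and conditional on each gene's total, with edgeR 4.0.16 TMM sizes, over genes with at least 10 counts, Benjamini-Hochberg at 0.05. On data simulated with counting error only, it called 200 of 200 genes changed at least 2-fold and 11 of 18157 unchanged genes. The simulation held no further spread between libraries, so it gives no error rate for the real ones. Tools were R 4.3.3, DESeq2 1.42.0, Python 3.11.15, pandas 2.3.3, scipy 1.17.1 and matplotlib 3.10.9.

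Named genes are the 10 members, direct partners, and per list the 3 highest, the lowest and those called at least 2-fold apart; a few markers (Klf1, Alas2, Alb, Afp, Fcer1a) and the receptors Ackr1, Ccr1 and Cxcr2 were chosen after their values were seen and named beside results they touch. A gene that the rule names is not reported here. Junctions needed at least 2 reads in each replicate. Alternatives were FPKM, posterior mean TPM, mm9 RPKM, counts without length, other scalings, filters, thresholds and error model, and each replicate left out.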

Additional observations from a re-analysis of the deposited data

How the results depend on the processing

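No paired analysis was possible because the series holds 1 group. Leaving out a replicate is not possible for the comparison of the libraries. The median level of the 10 genes was 11.95 TPM and 14.3 in FPKM. Levels in mm9 RPKM were lower for all 10, with means of 34.8 for Pf4, 1.31 for Clec1b and 0.268 for Gp6. In FPKM these 3 were at 293, 15.5 and 2.69. Gp6 lay below 1 RPKM in both mm9 replicates (0.246 and 0.290), and the cause of the lower levels was not tested. All 45 pairs of genes kept their order in FPKM, 44 without replicate 2 and 40 in mm9 RPKM, where Clec1b fell below Gp1bb, Itgb3, Gp5 and Gp1ba, and Gp1bb below Itgb3. Ratios in counts without length were 0.882 (Pf4 over Ppbp), 1.03 (Itga2b over Itgb3), 1.499 (Gp1bb over Gp1ba), 1.70 (Gp9 over Gp1ba), 1.12 (Gp9 over Gp1bb), 0.801 (Gp1bb over Gp5) and 0.1005 (Gp6 over Fcer1g), so that the first and the sixth turned direction, since counts are not divided by length. In mm9 RPKM they were 1.40, 2.06, 2.29, 3.23, 1.40, 1.85 and 0.0650, with 1.23 for Gp5 over Gp1ba and 0.205 for Gp6 over Clec1b; the cause was not tested. Itga2b over Itgb3 was 1.48 on protein-coding transcripts. Members called numbered 5 with DESeq2 size factors (beside 40.3% of all genes), 5 at 100 counts (46.8%), 7 with library totals (45.3%), of which 4 were also called with TMM, 3 with no filter (15.4%) and 0 with edgeR's exact test (2.54%). Log2 ratios turned direction for Pf4 (0.0103) and Itgb3 (0.0141) with library totals and for Clec1b (-0.0026) at 100 counts. At 10 TPM 37 of 108 list genes passed. Expected count shares were 82.8% for Itga2b-201, 52.3% for Gp1ba-202, 86.5% for Gp1bb-202 and 66.0% for Clec1b-201. Junctions numbered 91, but 338 with no minimum, and 121 to 144 with 1 replicate left out. Depth limits the interval of Gp6 most.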

Other observations

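At its 3′ end Clec1b overlaps Clec9a, a receptor gene of dendritic cells on the same strand, which had 0.73 and 0.94 TPM. In the junction list Clec9a had 72 and 167 reads on 6 annotated introns, against 992 and 1557 on the introns of Clec1b. The Clec9a reads include 10 and 31 on an annotated Clec9a intron that starts within both genes (mm9 chromosome 6, 129359064 to 129360292).

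Sept5, which overlaps Gp1bb, had 438 and 650 reads on its annotated introns, fewer than the 462 and 756 on the single intron of Gp1bb. Apart from these, an unannotated Sept5 junction with 1 known end (mm9 chromosome 16, 18623511 to 18624203) had 69 and 48 reads.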
